A study of Mus musculus with 4 samples.

Results

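Elastic fibre and matrix remodelling genes were examined in spatial transcriptomes of mouse lung. The set comprised 10 genes chosen by name (Eln, Fbn1, Fbln5, Mfap4, Lox, Fn1, Postn, Mmp2, Mmp3 and Timp3), and all 10 were found among the 32285 genes of each of the 4 count tables. Cryosections from the upper branches of the lung of C57BL/6J mice were placed on Visium slides, where mRNA from overlying tissue is caught at barcoded spots and each molecule is tagged with a unique molecular identifier (UMI). The Vaped (V) group comprised 1 male and 1 female exposed as young adults, in whole-body chambers, to vapour of a flavoured vape juice delivered from JUUL pens. The Non-Vaped (NV) group comprised 1 male and 1 female without exposure. No transgene or other treatment was named for either group. The V samples have titles that begin with 0_Per, which the labels do not spell out, and 1 section represents each mouse.

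Elastic fibres let the lung recoil after each breath. They consist of a core of cross-linked elastin on a scaffold of fibrillin microfibrils, with accessory proteins that guide assembly and lysyl oxidases that form the cross-links. Smooth muscle cells and fibroblasts of vessels, airways and alveolar septa make most of this matrix, whereas matrix metalloproteinases and their tissue inhibitors govern its turnover.

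Sections held 473 to 2053 spots and 6957392 to 34308556 UMIs, with medians of 6259 to 11355 UMIs per spot. Levels are given as UMIs of a gene per 1000000 UMIs of the section or class of spots (CPM). The V male section differed in tissue content from the others. Spots were split by the summed share of 6 alveolar and capillary genes (Calcrl, Cldn18, Hopx, Sftpb, Sftpc and Tmem100). Most of that sum was Sftpc, at 27118, 17629 and 36068 CPM in the NV male, NV female and V male. Sftpb followed at 3429, 2157 and 3966 CPM. Spots at 50% or more of the level pooled over all UMIs of the 4 sections (27648 CPM) were called parenchyma and the rest upper airway. Both names stand for this share alone, and no airway marker was used. Upper airway thus means spots low in these alveolar and capillary genes, and whether they lay on airway tissue was not tested. The V female, with 34308556 UMIs, weighed most in that pooled level. By this rule the V male held 1 upper airway spot, whereas the NV male held 158, the NV female 125 and the V female 433. Its 6 smooth muscle markers (Acta2, Myh11, Tagln, Cnn1, Actg2 and Lmod1) were all lower than in any other section and summed to 159 CPM, against 257 to 369 CPM. Of its 6 fibroblast markers (Col1a1, Col1a2, Col3a1, Dcn, Pdgfra and Dpt), 5 were lower than in any other section and Pdgfra was higher, and the list summed to 520 CPM against 1733 to 2029. Its 6 cardiac muscle markers summed to 18.7 CPM against 7313 to 13908. Its 3 alveolar fibroblast markers (Tcf21, Inmt and Wnt2), 4 endothelial, 4 alveolar type 1 (AT1), 4 alveolar type 2 and 4 red blood cell markers were each higher than in any other section. The alveolar fibroblast list summed to 4823 CPM against 2194 to 3055 and the AT1 list to 4361 CPM against 1764 to 2337. The V female also differed. Its brown fat markers Ucp1, Elovl3 and Otop1 stood at 859, 58.0 and 27.2 CPM, against at most 1.01, 0.862 and 3.02 elsewhere. Cidec stood at 382 against 513 CPM in the NV female. Its cartilage marker Snorc stood at 19.1 CPM against at most 0.144 elsewhere, and Cnmd at 1.84 against 3.02 in the NV female. Leaving out the V male thus left sections of unlike tissue content, and the part of this was not tested. Many, but not all, of the results that include the V male section are also given without it. In sections of whole tissue, fewer cells of a type and less RNA per cell cannot be told apart.

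The 10 genes lie on 10 chromosomes. In the GENCODE annotation of GRCm38, Eln lies on the minus strand of chromosome 5 from 134702593 to 134747323, Mfap4 on the plus strand of chromosome 11 from 61485431 to 61488900 and Mmp3 on the plus strand of chromosome 9 from 7445822 to 7455975. RefSeq promoter sequences (GRCm38.p6) were found for 5 of them, and 2 are shown because the results turn on these genes. Of the 10, Mmp3 had the lowest V level relative to NV, and Postn had one of the largest differences between upper airway and parenchyma spots. Each sequence covers the 250 bases before the start site, 5′ to 3′ on the plus strand, and capitals mark matches in either orientation to the TATA box (TATAAA), an AP-1 site (TGANTCA), an SP1 site (GGGCGG) or the CArG box, and the matches in the printed sequences did not overlap.
Mmp3, chr9:7445572-7445821: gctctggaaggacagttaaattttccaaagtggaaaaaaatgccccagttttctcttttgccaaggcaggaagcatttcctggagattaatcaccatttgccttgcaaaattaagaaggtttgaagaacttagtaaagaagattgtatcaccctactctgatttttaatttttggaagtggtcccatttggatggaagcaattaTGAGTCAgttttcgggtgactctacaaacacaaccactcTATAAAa
Postn, chr3:54360857-54361106: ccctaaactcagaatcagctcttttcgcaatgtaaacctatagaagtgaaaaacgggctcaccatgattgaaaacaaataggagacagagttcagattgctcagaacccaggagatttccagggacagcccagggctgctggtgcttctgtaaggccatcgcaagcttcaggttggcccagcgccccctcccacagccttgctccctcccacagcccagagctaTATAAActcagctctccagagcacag
The Mmp3 sequence held TATAAA 7 bases and TGAGTCA 46 bases before the start site. The Postn sequence held TATAAA 26 bases before it. In windows of this length, 12.4% of 32851 RefSeq promoters held TATAAA, 6.75% held TGANTCA, 32.7% held GGGCGG and 1.47% held a CArG box. A match is a description of the letters and was not tested for use.

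The first question was whether the level of these genes differed between V and NV lungs. Over whole sections, V and NV levels did not overlap for Mmp3, Fbn1 and Mfap4, each lower in both V sections, and overlapped for the other 7 genes. These 3 of 10 genes compare with 14.4% of all 14570 genes tested that were lower without overlap, and 27.0% did not overlap in either direction. No gene passed edgeR's quasi-likelihood test on the summed UMIs (TMM scaling), where a call needed a Benjamini-Hochberg adjusted p below 0.05 together with a log2 fold change beyond 0.25 in either direction. The share called was 0% of all genes and 0 of the 10, whereas 248 genes, and 1 of the 10, had an unadjusted p below 0.05. DESeq2's Wald test called 8 genes and 0 of the 10. An exact permutation test of 2 mice against 2 has 0.33 as its smallest two-sided p, and the spread compared is that between these sections.

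**Figure D1:**
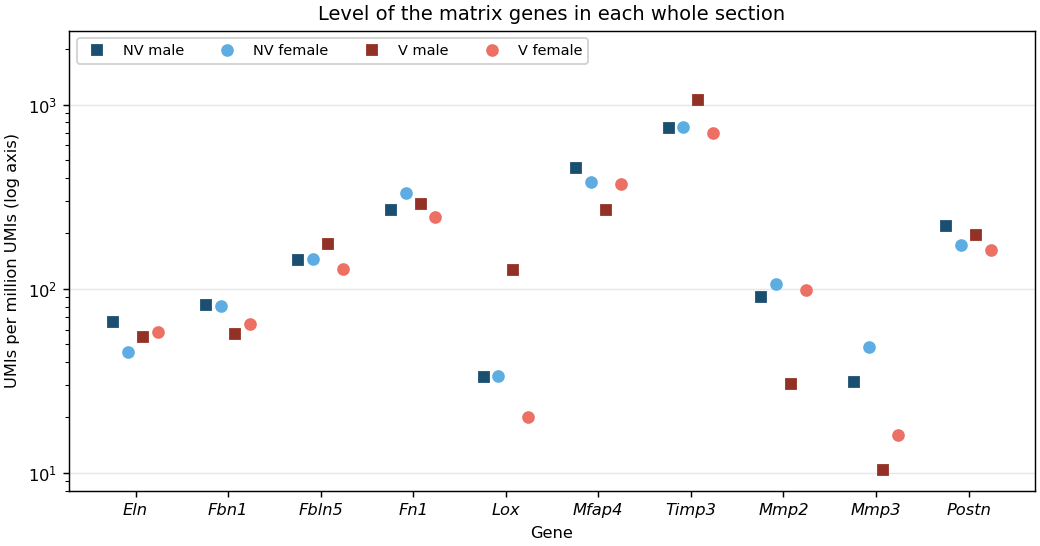
Level of each gene in the 4 whole sections, in CPM on a log axis; blue points are NV, red points V, squares males and circles females. Mmp3 sits between 31.2 and 48.0 in NV and between 10.4 and 16.1 in V sections, and the V male stands apart for Lox at 127 and for Mmp2 at 30.2.

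Mmp3 (stromelysin 1), a metalloproteinase that cleaves proteoglycans and fibronectin and activates other metalloproteinases, was counted at 31.2 and 48.0 CPM in the NV male and female, against 10.4 and 16.1 for the V male and female. These levels rest on 293, 334, 123 and 551 UMIs. NV sections averaged 39.6 ± 11.9 CPM and V sections 13.2 ± 4.04 CPM (SD, n = 2 each). Within each sex the V section had 0.332 (male) and 0.335 (female) times the NV level. The log2 fold change was −1.57 ± 0.40 (SE) with an edgeR adjusted p of 0.9997 and an unadjusted p of 0.016, and it stayed between −2.07 and −1.22 when each section was left out in turn. It was not called without the V male (−1.22, edgeR adjusted p = 0.362), when 21 of 15083 genes (0.139%) were called. It was called without the V female (edgeR adjusted p = 0.0218), when 811 of 14831 genes (5.47%) were called.

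Fbn1 (fibrillin 1), the main protein of the microfibril scaffold, stood at 81.4 and 80.9 CPM in the NV male and female, and at 57.1 and 64.2 in the V male and female. The NV sections lay close together, and both V sections were below them. The log2 fold change was −0.43 ± 0.20 (SE), with an edgeR adjusted p of 0.9997. It lay between −0.65 and −0.26 when each section was left out in turn. Eln (tropoelastin, the soluble precursor of elastin) showed no such order, at 65.6 and 45.3 in NV and 54.6 and 58.1 in V sections, and its log2 fold change was 0.01 ± 0.25 (SE).

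Lox (lysyl oxidase), which cross-links elastin and collagen, was counted at 33.1 and 33.5 CPM in the NV male and female and at 20.1 in the V female, but at 127 in the V male. The log2 fold change of 1.03 ± 0.82 (SE) rested on that section and was −0.65 without it. With the V male as the only V section, Lox was called at a log2 fold change of 1.79 (edgeR adjusted p = 0.00318), in the fit that called 5.47% of all genes. The alveolar fibroblast, endothelial, AT1, alveolar type 2 and red blood cell markers were also higher in that section, and their part in its Lox and Timp3 levels was not tested. The V male had a Lox UMI in 52.4% of its spots of at least 1000 UMIs, whereas the other sections had one in 26.1 to 34.3%, so the higher level was spread over the section rather than held by a few spots.

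Mmp2 (gelatinase A), a metalloproteinase of fibroblasts that degrades gelatin and basement membrane collagen, stood at 89.7 and 106 CPM in the NV male and female, 98.4 in the V female and 30.2 in the V male. Its log2 fold change was −0.56 ± 0.67 (SE) and 0.08 without the V male. Set against the fibroblast list, the sections lay close together, with 5.18, 5.21, 5.81 and 5.02 Mmp2 UMIs per 100 fibroblast marker UMIs in the NV male, NV female, V male and V female. Mmp3 gave 1.80, 2.37, 1.99 and 0.82 on that scale, so that the V female alone was low. The fibroblast list was low in the V male, and each of the other 8 genes was higher there than in any other section on this scale. Lox gave 24.4 in the V male against 1.03 to 1.91 elsewhere, Timp3 203 against 35.8 to 43.1, and Eln 10.5 against 2.23 to 3.79. Fbn1 gave 10.98 in the V male against 3.28 to 4.70 elsewhere, so that its V sections lay on both sides of the NV sections. These ratios describe sections, and no test was made of them.

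Fbln5 (fibulin 5), which tethers elastin to microfibrils and to cells, ranged from 128 in the V female to 174 in the V male, with 142 and 144 CPM in NV sections. Mfap4, a microfibril-associated glycoprotein of elastic fibres, stood at 455 and 379 in the NV male and female against 269 and 369 in the V male and female, and the V female lay close to the NV female. Its log2 fold change was −0.39 ± 0.33 (SE), and −0.10 without the V male. Fn1 (fibronectin), an adhesive matrix glycoprotein, ranged from 244 to 331. The V and NV levels of Postn (periostin), a matricellular protein that aids collagen assembly, overlapped between 161 and 219. Timp3, an inhibitor of metalloproteinases that binds to the matrix, was between 702 and 755 in 3 sections and 1057 in the V male. None of these 5 genes had a log2 fold change beyond 0.40 in size.

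The comparison was repeated on parenchyma spots alone, since the sections held different numbers of upper airway spots. Of the 14348 genes tested, 0% were called, with 380 at an unadjusted p under 0.05, and 0 of the 10 were called. DESeq2's Wald test called 10 genes and none of the 10. Levels did not overlap for 5 of the 10 genes, all lower in V (Fbn1, Fn1, Mfap4, Mmp3 and Postn), against 17.1% of all genes. Mmp3 stood at 30.4 and 58.9 CPM in the NV male and female against 10.4 and 16.4 in the V male and female. Its log2 fold change was −1.70 ± 0.40 (SE) with an edgeR adjusted p of 0.999 and an unadjusted p of 0.00722. Fbn1 stood at 85.5 and 84.1 against 57.1 and 66.5, a log2 fold change of −0.44 ± 0.16 (SE) with an unadjusted p of 0.0368, and −0.32 without the V male. Mfap4 stood at 546 and 580 against 269 and 540, a log2 fold change of −0.46 ± 0.37 (SE), and −0.03 without the V male. Mmp3 was called when either V section was left out, at −1.37 without the V male (edgeR adjusted p = 3.14e-05) and −2.08 without the V female (edgeR adjusted p = 1.78e-14). Calls were common in the second of these fits, with 1483 of 14154 genes (10.5%) called, and 291 of 14373 genes (2.02%) were called in the first. Those fits held 3 sections, and the V section that remained was assumed to vary like the NV sections. Lox was called in both as well, but in opposite directions, at −0.75 without the V male and 1.66 without the V female. Fbn1, Mfap4 and Mmp2 were called lower without the V female and in none of the other 3 fits that left out a section.

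**Figure D2:**
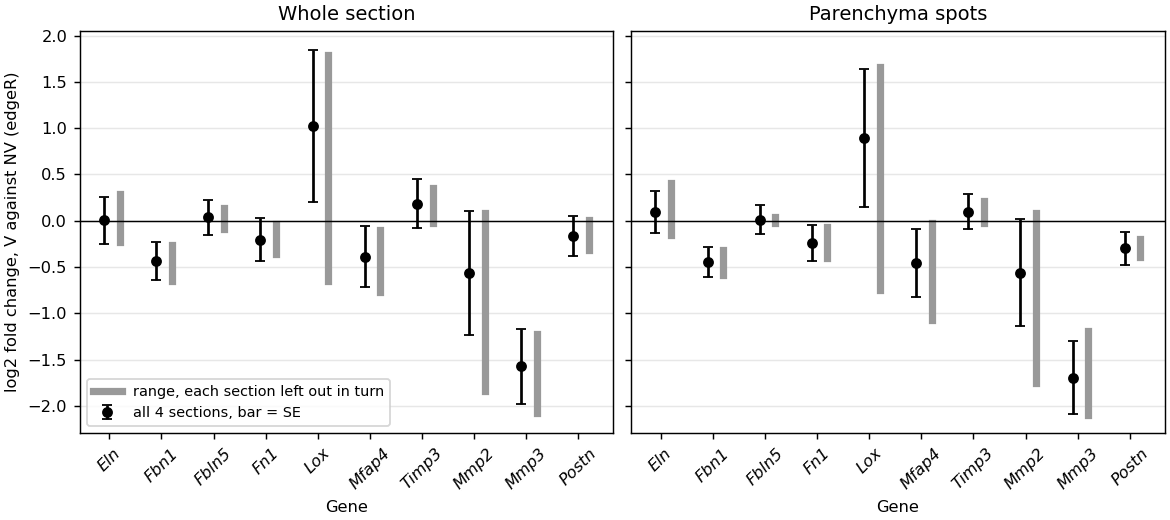
Log2 fold change of V against NV for each gene over whole sections (left) and parenchyma spots (right); points are edgeR estimates from all 4 sections with bars of 1 SE, and grey bars span the estimates with each section left out in turn. The grey bar of Mmp3 runs from −2.07 to −1.22 over whole sections, whereas that of Lox runs from −0.65 to 1.79.

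The second question was how these genes differed between spots low and high in alveolar and capillary genes, named upper airway and parenchyma here. Upper airway and parenchyma spots of the same section were compared, with the mouse as a block, in the 3 sections that held both (NV male, NV female, V female). edgeR called 5606 of 13520 genes (41.5%), 3072 higher and 2534 lower in the upper airway, and 5 of the 10. Mfap4, Postn, Fbln5 and Timp3 were lower in upper airway spots and Eln was higher, whereas 18.7% of all genes were called lower and 22.7% higher. The scale matters here, because scaling to total UMIs alone moved the median log2 fold change of all genes from −0.03 to −0.45. On that scale the lower genes were joined by Fn1 and Lox, with 6 of the 10 called lower and 0 higher, beside 1868 genes called higher and 6971 lower.

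Mfap4 stood at 546, 580 and 540 CPM in parenchyma spots of these sections, named in this order throughout, and at 154, 141 and 166 in their upper airway spots. The regions did not overlap and the log2 fold change was −1.42 ± 0.12 (SE, edgeR adjusted p = 1.44e-05). The upper airway held 7.84%, 17.0% and 20.5% of the Mfap4 UMIs of these sections against 23.1%, 45.8% and 45.6% of all UMIs. Postn fell from 263, 250 and 218 to 71.3, 81.8 and 93.4 CPM, a log2 fold change of −1.12 ± 0.13 (SE, edgeR adjusted p = 9.87e-05). Mfap4, Postn and Fbln5 were called lower under every alternative tried.

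Fbln5 stood at 163, 177 and 166 CPM in the parenchyma and 72.3, 105 and 83.1 in the upper airway, with a log2 fold change of −0.54 ± 0.11 (SE, edgeR adjusted p = 0.0036). Timp3 stood at 827, 985 and 871 against 482, 483 and 501, a log2 fold change of −0.44 ± 0.12 (SE, edgeR adjusted p = 0.017), and was not called without the NV female. The level of Eln was nearly the same in both regions, at 63.9, 44.8 and 61.1 CPM in the parenchyma and 71.3, 45.8 and 54.5 in the upper airway. It was called higher after TMM scaling (0.42 ± 0.12 SE, edgeR adjusted p = 0.0185), but its log2 fold change was −0.01 with total UMIs alone, and it lost the call with DESeq2's Wald test, without the mouse block, without either NV mouse and with the parenchyma limit at 25% (−0.09). Fbn1, Mmp2, Mmp3, Fn1 and Lox did not pass the test after TMM scaling. Fbn1 had 0.791 to 0.925 and Mmp2 0.865 to 0.914 times the parenchymal level in the upper airway.

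**Figure D3:**
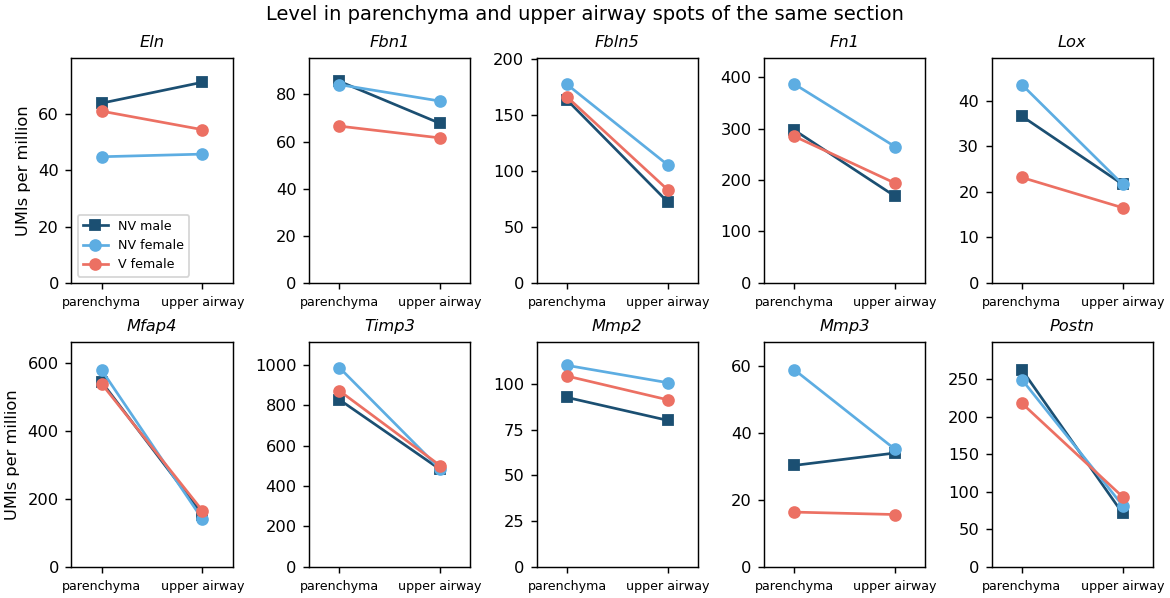
Level of each gene, in CPM, in parenchyma and upper airway spots of the same section, with 1 line per mouse. Mfap4 drops from 540 to 580 in parenchyma to 141 to 166 in the upper airway in all 3 mice, whereas the lines of Eln stay nearly level.

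Upper airway spots also held 11705 to 35370 cardiac muscle marker CPM against 3634 to 6122 in the parenchyma of the same sections, 2216 to 2373 against 1588 to 1737 fibroblast marker CPM, and 911 to 1140 against 3268 to 3657 CPM of the alveolar fibroblast markers Tcf21, Inmt and Wnt2. The upper airway class was thus rich in cardiac muscle markers, and its levels are not those of airway tissue alone. The part of these markers in the results was not tested.

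Of 53 further genes of elastic fibre assembly, matrix turnover and matricellular signalling, 49 were tested between the regions, and 11 were called higher and 18 lower. The largest rises in the upper airway were those of Timp4 (2.38), another metalloproteinase inhibitor, Thbs2 (2.36), a thrombospondin, Fbln2 (1.86), a fibulin, Adamts5 (1.63), an aggrecanase, and its substrate Vcan (1.52), as log2 fold changes. The largest falls were those of Mmp12 (−1.79), the macrophage elastase, Spp1 (−1.78), osteopontin, Thbs1 (−1.35), Mfap2 (−1.13), a further microfibril protein, and Ccn1 (−1.04). Timp3 and Timp4 thus lay on opposite sides, as did Fbln5 and Fbln2.

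The third question was how these genes related to smooth muscle and fibroblasts. In each section, the 10% of spots with the highest share of smooth muscle markers, among spots of at least 1000 UMIs, were called smooth muscle rich, and fibroblast rich spots were chosen likewise. None of the 10 genes was a marker. A spot covers several cells, and 13.0 to 27.4% of smooth muscle rich spots were also fibroblast rich. The contrast in markers was small in the V male, with a median of 3 smooth muscle UMIs in rich spots against 1 in other spots and 5 against 3 fibroblast UMIs, whereas the other sections had medians of 6 to 13 against 2 to 3 and 31 to 101 against 13 to 17.

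In smooth muscle rich spots, edgeR with the mouse as a block called 842 of 13183 genes (6.39%) and 2 of the 10, Eln and Mmp3, both higher, against 4.71% of all genes called higher. The 621 higher and 221 lower genes became 502 and 425 with total UMIs alone, and the same number of the 10 was called. Eln stood at 105, 62.2, 58.3 and 89.7 CPM in rich spots of the NV male, NV female, V male and V female, against 61.4, 43.0, 54.2 and 54.6 in the other spots. Its ratio was 1.71, 1.45, 1.08 and 1.64, so the V male was the lowest. The log2 fold change was 0.66 ± 0.12 (SE, edgeR adjusted p = 6.04e-04) and 0.83 without the V male, when 1262 genes and the same 2 of the 10 were called. Mmp3 had ratios of 1.69, 1.11, 1.71 and 1.85, resting on 46, 44, 17 and 93 UMIs in rich spots, and a log2 fold change of 0.75 ± 0.14 (SE, edgeR adjusted p = 8.85e-04).

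Both calls were lost within parenchyma spots, where 81 genes were called, and without the mouse block, where 0 genes were called in edgeR with 319 at an unadjusted p under 0.05. The log2 fold changes of Eln and Mmp3 were 0.37 and 0.40 within parenchyma, and 0.68 and 0.63 without the block, where the SE rose to 0.24 and 0.57. Smooth muscle rich spots lay in the upper airway to 49.4% and 58.7% in the NV sections and to 41.8% in the V female. They held 15988 to 32145 cardiac muscle marker CPM in those 3 sections, against 6366 to 11423 in the other spots, and 19.4 against 18.6 in the V male. The part of cardiac tissue was not tested. Fbn1, Fbln5, Fn1, Lox, Mfap4, Timp3, Mmp2 and Postn did not pass the test, with log2 fold changes from −0.16 to 0.28. Of the 50 further matrix genes tested, 8 were called higher and 2 lower, led by Thbs2 (1.34), Fbln2 (1.12), Vcan (1.06), Fbln1 (0.75) and the microfibril gene Mfap5 (0.60). The 2 lower genes were Spp1 (−0.47) and Mfap2 (−0.41).

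In fibroblast rich spots, edgeR called 706 of 13466 genes (5.24%) and 5 of the 10. Mmp3, Mmp2, Eln and Fbn1 rose and Mfap4 fell, against 3.22% of all genes called higher and 2.03% called lower. Mmp3 stood at 89.1, 92.7, 12.8 and 34.6 CPM in rich spots of the NV male, NV female, V male and V female, against 26.5, 44.9, 10.1 and 13.3 in other spots. The ratio was 3.36, 2.06, 1.27 and 2.61, and the log2 fold change was 1.28 ± 0.17 (SE, edgeR adjusted p = 4.45e-05). Mmp2 stood at 191, 232, 42.6 and 145 against 81.4, 97.0, 29.2 and 91.2 CPM. Its rich spots were higher in all 4 sections, with a log2 fold change of 0.94 ± 0.13 (SE, edgeR adjusted p = 1.08e-04).

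For Eln and Fbn1 the levels were higher in rich spots of the NV sections and the V female, and the V male showed no such difference. The ratios of Eln were 1.47, 2.52, 0.931 and 1.68, and its log2 fold change was 0.63 ± 0.15 (SE, edgeR adjusted p = 0.0172). Those of Fbn1 were 1.46, 2.04, 1.01 and 1.69, and its log2 fold change was 0.61 ± 0.13 (SE, edgeR adjusted p = 0.00849). Mfap4 had ratios of 0.638, 0.643, 1.02 and 0.539 and a log2 fold change of −0.54 ± 0.14 (SE, edgeR adjusted p = 0.0232). Without the V male these 5 genes were called with larger changes and Fn1 was added (0.54, edgeR adjusted p = 0.0183), in a fit that called 1222 of 13613 genes (8.98%). In the 4 sections, Fn1 (0.41), Lox (0.28), Timp3 (0.23), Fbln5 (0.12) and Postn (−0.28) did not pass the test, as log2 fold changes.

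**Figure D4:**
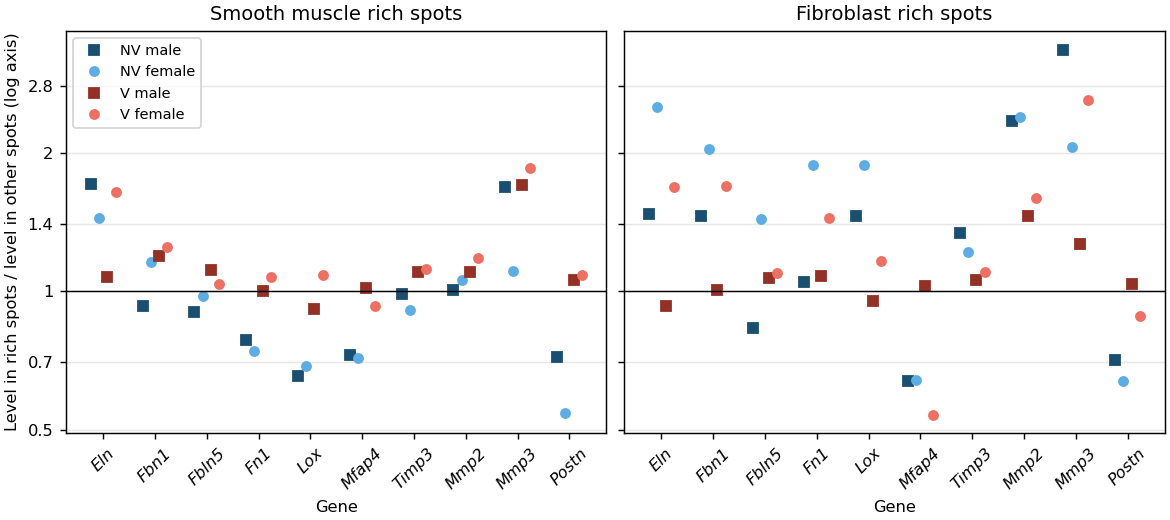
Ratio of the level in smooth muscle rich (left) or fibroblast rich (right) spots to that in the other spots of the same section, on a log axis, with the line at equal levels; colours and shapes mark the 4 sections. Mmp3 in fibroblast rich spots reaches 3.36 in the NV male, and the V male lies near the line for Eln, Fbn1 and Mfap4.

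Fibroblast rich spots differed from the rest in depth and other markers. In the NV male, 35.8% of them fell in the upper airway class, beside 54.3% for the NV female, 0% for the V male and 69.7% for the V female. That class held 158 of 842, 125 of 473, 1 of 1565 and 433 of 2053 spots of these sections. The median of the rich spots was 4885, 5142, 4556 and 24248 UMIs per spot in the NV male, NV female, V male and V female, against 10117, 11231, 6479 and 10952 in the other spots. Mesothelial markers summed to 133 to 552 CPM in rich spots against 72.2 to 204 in the others. Thinning spots to 3000 UMIs dropped the 111, 52, 202 and 224 spots of the NV male, NV female, V male and V female below that depth. Rich spots were then chosen anew, so the class itself changed. Mmp2, Mmp3 and Fbn1 kept their calls there and Eln and Mfap4 lost them. The same 3 genes were called within parenchyma spots, with Mmp3 at a log2 fold change of 1.74, whereas Mfap4 was at −0.30 and Eln at 0.35. Without the mouse block 0 genes were called in edgeR, with 436 at an unadjusted p under 0.05, while Mmp2 and Mmp3 had log2 fold changes of 1.02 and 1.22. Of the 50 further matrix genes tested, 15 were called higher and 2 lower. The largest rises were those of Vcan (1.59), Fbln2 (1.56), Adamts5 (1.54), Thbs2 (1.43) and Timp1 (1.41), and the falls were those of Spp1 (−0.65) and the membrane-type metalloproteinase Mmp15 (−0.51).

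Whether these contrasts differed between V and NV was tested with an interaction term. For smooth muscle rich spots, edgeR called 111 of 14061 genes (0.789%), 0.0356% higher and 0.754% lower in V, and 0 of the 10, with 1124 genes, Postn among them, at an unadjusted p under 0.05. Postn had ratios of 0.720 and 0.543 in NV and 1.06 and 1.08 in V sections, an interaction of 0.59 ± 0.18 (SE, edgeR adjusted p = 0.136), which was 0.64 without the V male. Within parenchyma spots the interaction of Postn was 0.01 (unadjusted p = 0.926), and 0 of the 10 had an unadjusted p under 0.05. Postn was lower in the upper airway, which held 49.4% and 58.7% of the smooth muscle rich spots of the NV sections, 41.8% of those of the V female and 0% of those of the V male. The part of this difference was not tested. DESeq2's Wald test called 71 genes and 0 of the 10. For fibroblast rich spots, 4 of 14452 genes (0.0277%), 0.0208% higher and 0.00692% lower, and 0 of the 10 were called, with 719 at an unadjusted p under 0.05, and DESeq2's Wald test called 1. Mmp2 had an interaction of −0.65 (edgeR adjusted p = 0.711), and −0.57 without the V male. Within parenchyma spots alone, Mmp2 was called, with an interaction of −0.91 (edgeR adjusted p = 0.0098), in a fit that called 60 of 13043 genes (0.460%). Without the V male it was called there at −0.86 (edgeR adjusted p = 0.0195), beside 76 of 13802 genes (0.551%). In the parenchyma, fibroblast rich spots of the NV male and female had medians of 3635 and 3440 UMIs, against 10261.5 and 10181 in other spots. Those of the V male and female had 4555.5 and 6861.5, against 6479 and 9442.5. The interaction was not run on thinned spots, and the part of depth was not tested. Among smooth muscle rich spots only, V against NV gave 0 of 10010 genes called (0%) and 0 of the 10, with an unadjusted p below 0.05 for 238 genes and 3 called by DESeq2's Wald test. There Mmp3 stood at 49.3 and 52.6 CPM in the NV male and female against 16.5 and 27.4 in the V male and female, a log2 fold change of −1.31 ± 0.40 (SE, edgeR adjusted p = 0.985). Without the V male it was −0.93 (edgeR adjusted p = 0.133), when 149 of 10450 genes (1.43%) were called.

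Spot by spot, the relation of the 10 genes to the marker lists was weak, and it is given as a description. Pearson's r over the 455 to 2008 spots of a section, on log2 of UMIs per 10000 UMIs with 1 added, was averaged over the 4 sections. With the smooth muscle list it lay between −0.01 and 0.08, and with the fibroblast list between −0.14 for Mfap4 and 0.18 for Mmp3. Spots of a section share library, depth range and tissue, and counts were sparse. Mmp3 had a UMI in 6.36% of the V male's spots and in 19.6 to 37.6% of those of the other sections, whereas Timp3 had one in 95.6 to 97.8%.

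Mfap4 stood apart by its relation to alveolar markers. Its r with the alveolar fibroblast list was 0.50 and 0.61 in the NV male and female and 0.13 and 0.47 in the V male and female. Most of that list was Inmt, at 2930, 2290, 4620 and 2087 CPM in the NV male, NV female, V male and V female. Tcf21 stood at 113, 101, 185 and 97.1 CPM. Mfap4 averaged 0.37 with the alveolar type 1 list and 0.35 with the endothelial list, and −0.24 with the cardiac muscle list. Postn averaged 0.25 with the endothelial list and Timp3 0.29 with the alveolar type 1 list. Among pairs of the 10 genes, Mfap4 and Postn had the highest mean r, at 0.20.

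**Figure D5:**
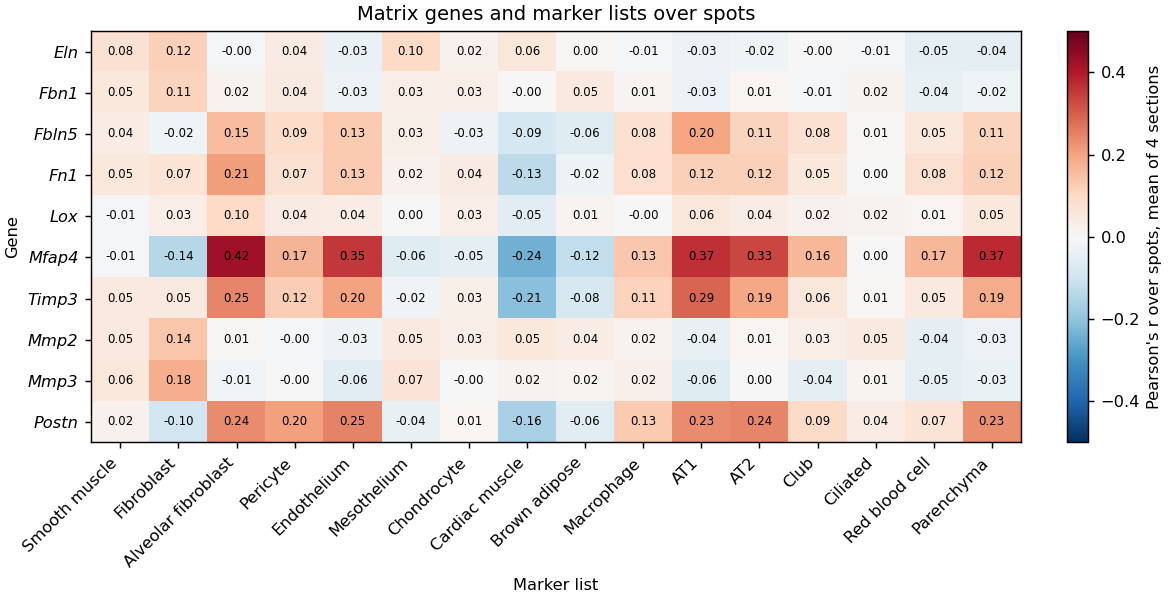
Pearson's r over spots between each gene (rows) and the summed level of each marker list (columns), as the mean of the 4 sections, with red for positive and blue for negative values. Mfap4 reaches 0.42 with the alveolar fibroblast list and −0.24 with the cardiac muscle list, whereas the smooth muscle column stays between −0.01 and 0.08.

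Among 5643 genes with at least 200 UMIs in every section, those most like Mfap4 over spots were Inmt, Sftpc and Sftpb, with a mean r of 0.42, 0.37 and 0.36. Over single sections these ranged from 0.116 to 0.599, −0.012 to 0.561 and −0.0039 to 0.552. Since Inmt made up most of the alveolar fibroblast list, its r and that of the list are not separate observations. Those most like Timp3 were Ager (0.28), Mgp (0.26) and Tmsb4x (0.26), and those most like Postn were Epas1, Tmsb4x and Hsd11b1, at 0.25 to 0.26. Mmp3 was most like Mgp (0.19), Dcn (0.17) and C4b (0.17), and Mmp2 was most like Col1a2, Col1a1 and Gsn, at 0.13 to 0.14. Fn1 was most like Inmt, Gsn and Tmsb4x, at 0.18 to 0.20, and Fbln5 most like Ager, Igfbp2 and Pmp22, at 0.17 to 0.20. For Fbn1 (Aebp1, Rpsa and Dpt) and Lox (Gsn, Inmt and Bgn), the highest mean r was 0.12. Each mean is over 4 sections, and single sections differed, as for Postn with Epas1, where r ran from 0.032 to 0.422.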

How the data were processed

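Visium libraries of 4 lung sections (2 V and 2 NV mice, each group with a male and a female) were analysed. The authors aligned reads to mm10 with Space Ranger and deposited UMI counts per gene and tissue spot, without normalization. The labels state that samples were processed together. Their later normalization and integration in Seurat 4.0.3 are not part of these counts.

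The 10 genes and the marker and gene lists were chosen with earlier results of these data known. All 10 genes were tested in every comparison, and values are given for those named in the text. Of the 53 further genes, counts and up to 5 called genes per direction with the largest changes are given. For each of the 10 except Eln, whose result is not reported here, the 3 genes with the highest mean r over spots are named.

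Counts were summed per section and class of spots, since spots of a section are not independent. The quasi-likelihood test of edgeR 4.0.16 (R 4.3.3) was fitted to these sums across all genes, after TMM scaling and filterByExpr, with Benjamini-Hochberg adjustment. Markers that defined a class were left out of the counts of genes called. Each SE was taken as the log2 fold change over the square root of its F. Alternatives used DESeq2 1.42.0, limma 3.58.1 and other spot classes, and total UMIs without TMM and interactions with a section left out were added after the data were seen. Barcodes mark slide positions, and 277 to 1167 were shared between pairs of libraries. Gene positions came from GENCODE. Tests were tried on simulated data that held 200 genes shifted by 2 on the log2 scale. Every gene was given the common dispersion of the real sums, drawn independently for each sum. Apart from the shift, its expected share was the same in every sum, with no effect shared by sums of the same mouse. The shares recovered are therefore not the power for single genes in these data. The test recovered 28% of them among 14337 genes for V against NV over whole sections, 73% among 14098 genes in parenchyma spots and 98% among 13318 genes between regions. Levels per section rest on 123 to 24082 UMIs per gene. Positions of spots and images were not used here.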

Additional observations from a re-analysis of the deposited data

Results flagged for a closer look

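Within each sex, V was compared with NV by 1 section a side. For 5 of the 10 genes the V section moved in opposite directions in males and females, as log2 ratios of CPM over whole sections. Lox gave 1.93 in males and −0.74 in females, and Timp3 gave 0.50 and −0.11. Fbln5 gave 0.29 and −0.17, Fn1 gave 0.10 and −0.44, and Eln gave −0.26 and 0.36. The share over all genes was not counted, so the 5 genes have no background to be set against and are a description. The difference between the sexes was not tested. The V male section held 1 upper airway spot and 520 fibroblast marker CPM against 1733 in the NV male, whereas the female sections held 125 and 433 upper airway spots and 2029 and 1961 fibroblast marker CPM. Sex and tissue content cannot be told apart here.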

How the results depend on the processing

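Of 98 pairs of a comparison and an alternative, 80 were labelled the same as the main result. For the relation over spots, this meant a shift of the median r by less than its SD over sections. For the fits, it meant that the count of the 10 genes called stayed within 1.5 times the main count. Many of those pairs had 0 of the 10 called in both fits. In V against NV the count was 0 with all sections. It ranged from 0 to 3 over whole sections, 0 to 5 in parenchyma and 0 to 3 in smooth muscle rich spots with each section left out, and the high end came without the V female, as did 811, 1483 and 1601 genes called. Without the V male, 21, 291 and 149 genes were called. The replicate number, which is also the sex, was used as a block. Deviations of same-numbered samples correlated at 0.324 over whole sections and 0.0542 in parenchyma. The numbers were not taken to pair the mice, and these correlations do not decide whether sex mattered. The replicate block gave 0 of the 10 genes and 0 genes called in all 3 comparisons. With it, 413, 459 and 489 genes had an unadjusted edgeR p under 0.05, against 248, 380 and 238 without it. DESeq2's Wald test called 8, 10 and 3 genes there, and no filter on low counts gave 0, 5 and 215. The 5 genes called between regions became 3 to 5 with a mouse left out. The 2 called in smooth muscle rich spots became 0 without the mouse block, 0 in parenchyma spots and 1 with the top 20% of spots. The 5 called in fibroblast rich spots became 3 with DESeq2's Wald test, in parenchyma spots and in thinned spots, 0 without the mouse block, and 2 to 6 with a mouse left out. Their difference between V and NV gave 1 in place of 0 in parenchyma spots, with the V male and without it. The median r over spots of the 20 pairs of a gene with the smooth muscle or fibroblast list was 0.046, and 0.015 in thinned spots. Over all genes, the 5606 called between regions became 8839 with total UMIs. The 842 called in smooth muscle rich spots fell to 467 with DESeq2's Wald test, 81 in parenchyma spots, 185 in thinned spots, 474 without the NV male and 406 without the V female. The 706 called in fibroblast rich spots became 301 with DESeq2's Wald test, 1073 with no filter, 1064 with the top 20% of spots, 255 in parenchyma spots, 289 in thinned spots, 294 without the NV male, 425 without the NV female, 1222 without the V male and 160 without the V female. The 111 and 4 called for the interactions became 71 and 1 with DESeq2's Wald test, 193 and 9 with the top 20% of spots, and 8 and 60 in parenchyma spots, and the 4 became 12 with no filter. Fits of the interactions that left out a section were added after seeing the data. The 111 became 39 without the NV female, 62 without the V male and 4 in parenchyma spots without the V male, and the 4 became 46, 11 and 11 without the NV male, V male and V female and 76 in parenchyma spots without the V male.

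Directions turned in the following cases, given as log2 fold changes. In V against NV over whole sections, Eln was 0.01 and −0.0011 with DESeq2 size factors, −0.0012 with DESeq2's Wald test and −0.058 with limma, and Fbln5 was 0.04 and −0.011 in thinned sections and −0.097 with limma. Leaving out sections gave ranges of −0.23 to 0.28 for Eln, −0.086 to 0.14 for Fbln5, −0.65 to 1.79 for Lox, −0.024 to 0.35 for Timp3, −1.83 to 0.083 for Mmp2 and −0.31 to 0.0045 for Postn. In parenchyma the ranges were −0.16 to 0.40 for Eln, −0.024 to 0.043 for Fbln5, −0.75 to 1.66 for Lox, −0.022 to 0.22 for Timp3 and −1.75 to 0.079 for Mmp2, and Fbln5 was −0.00095 with total UMIs. In smooth muscle rich spots they were −0.86 to 0.064 for Eln, −0.069 to 0.16 for Fbln5, −0.12 to 0.19 for Fn1, −0.14 to 1.98 for Lox, −0.53 to 0.12 for Mfap4 and −1.94 to 0.15 for Mmp2. There the top 20% of spots gave −0.014 for Fbln5 and −0.046 for Fn1, and parenchyma spots −0.16 for Fn1 and −0.26 for Postn. Between regions, total UMIs gave −0.0063 for Eln, −0.19 for Fbn1, −0.18 for Mmp2 and −0.22 for Mmp3, and the 25% limit gave −0.094 for Eln and −0.31 for Mmp3. For smooth muscle rich against other spots, Fn1 was 0.091 with the top 5% of spots. Parenchyma spots gave 0.00022 for Fn1, 0.019 for Lox, 0.13 for Mfap4 and 0.050 for Postn, and thinned spots 0.034 for Fn1, 0.066 for Lox and 0.091 for Postn. For fibroblast rich spots, Fbln5 was −0.17 in parenchyma. The interaction for smooth muscle rich spots was −0.0031 for Mmp2 with DESeq2's Wald test, −0.054 for Fbln5 and −0.0090 for Mmp2 with the top 20% of spots, and −0.070 for Fbn1, −0.023 for Fbln5, −0.066 for Timp3 and −0.14 for Mmp2 in parenchyma. That for fibroblast rich spots was 0.36 for Fbln5 and −0.082 for Mfap4 in parenchyma. In parenchyma without the V male, the first was −0.061 for Timp3 and −0.0062 for Postn, and the second 0.25 for Eln, 0.25 for Fbln5 and −0.39 for Mfap4. With each section left out, the first ranged from −0.11 to 0.26 for Fbn1, −0.068 to 0.11 for Fbln5, −0.081 to 0.077 for Mmp2 and −0.026 to 0.53 for Mmp3, and the second from −0.41 to 0.31 for Fbln5, −0.59 to 0.20 for Fn1, −0.25 to 0.65 for Mfap4 and −1.10 to 0.11 for Mmp3. The cause of these changes was not tested.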
